A study of Mus musculus with 7 samples.

Results

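The transcripts of 34 genes of glycolysis, the pentose phosphate pathway and lactate and pyruvate metabolism were compared between Nestin-positive and Nestin-negative granule neuron precursors of the mouse cerebellum. The genes were chosen by name from the pathways, with Aldoc left out because it marks glia, and were read from every probe set that the platform annotation assigns to exactly 1 of them. A probe set is a group of short probes on the array that reads 1 transcript. Of the 34 genes, 28 passed a filter on low signal (at or above the array median on at least 3 of the 7 arrays) and were tested among 11089 genes in all. Gpi1, Eno1 and G6pdx had no probe set of their own in the annotation used. Gapdh was read by control probe sets alone, and Eno2 and Slc16a3 lay below the array median on all 7 arrays.

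Both groups carried the same alleles, given in the labels as Math1-Cre/Ptc-loxp/Nestin-CFP. Math1-Cre deletes the floxed gene in cells of the Math1 lineage, which includes the granule neuron precursors, and Ptch1 encodes the receptor that holds the Hedgehog pathway inactive. Cells were sorted by flow cytometry into a fraction with and a fraction without the CFP reporter of Nestin, so that a fraction is defined by the reporter and can hold cells of other types on the same side of the gate. The cells were neither cultured nor treated. There were 4 Nestin-positive samples (replicates 1, 3, 4 and 5) and 3 Nestin-negative samples (replicates 1, 4 and 5), with 1 array each. The labels of every sample give the tissue as medulloblastoma and the age as postnatal day 7, whereas the description of the series gives day 4. Nothing in the labels says that the samples came from separate animals, so the p-values measure the spread between these samples, part of which may be technical.

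Glycolysis splits glucose into pyruvate in the cytosol, and its early steps, from the trapping of glucose by hexokinase to the cleavage of fructose bisphosphate by aldolase, spend ATP that the later steps regain. Pyruvate either enters the mitochondrion through the pyruvate dehydrogenase complex or is reduced to lactate, while the pentose phosphate pathway branches off at glucose 6-phosphate to give NADPH and ribose for nucleotides. Proliferating granule neuron precursors driven by Hedgehog signalling are known for aerobic glycolysis, in which hexokinase 2, encoded by Hk2, takes a central place.

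Values are MAS5 signal, a linear intensity for each probe set, and changes are log2 differences, Nestin-positive minus Nestin-negative. Each array had a trimmed mean of 500 (2% left out at either end), and array medians lay between 64.4 and 94.5, highest on the 2 arrays of replicate 1. Nes, on whose reporter the cells were sorted, had a signal of 478, 829, 722 and 543 on the Nestin-positive and 179, 174 and 217 on the Nestin-negative arrays, which checks the labels. Of 12 markers of granule neuron precursors listed, 11 had a probe set and all 11 lay at or above the median on every array. The main fit used all 7 arrays and no covariate. The same-numbered samples of the 2 groups deviated together, so a second fit with a block for the replicate number, which rests on the 3 pairs 1, 4 and 5 and uses no Nestin-positive replicate 3, is given beside it.

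Most of these genes did not differ detectably between the fractions. With the block, 4 of the 28 tested genes passed, against 9.97% of all genes. All 4 were among the 9 tested genes listed here under upper glycolysis, with Tpi1 counted there, and this placing was not tested. Without the block, 0 of the 28 tested genes passed an adjusted p of 0.05 (limma, Benjamini-Hochberg over all genes tested), against 83 of 11089 genes, or 0.748%. At an unadjusted p under 0.05 there were 3 of the 28, Tpi1, Pfkm and Aldoa, against 14.4% of all genes. With the replicate block, Tpi1, Pfkm and Aldoa fell and Hk2 rose in Nestin-positive cells. These are 3 of 28 lower against 6.39% of all genes, and 1 of 28 higher against 3.58%, so that the block raised the calls among all genes too.

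The sign leaned to lower values in Nestin-positive cells. Of the 28 genes, 22 had a negative change without the block and 21 with it, which is 78.6% and 75.0%, against 54.5% and 52.6% of all genes tested. The median change of the 28 was -0.11 without and -0.08 with the block, beside -0.03 and -0.01 over all genes. Without the block, the median was -0.03 once Nestin-positive replicate 1 was left out and -0.17 once Nestin-negative replicate 1 was left out. The genes with a positive change went from 6 to 11 without Nestin-positive replicate 1 or without Nestin-negative replicate 5. The mean deviation of the 28 genes on an array ran from -0.19 on Nestin-positive replicate 1 to 0.16 on Nestin-negative replicate 5. On Nestin-negative replicate 1 it was -0.13 and on Nestin-positive replicate 4 it was 0.10, so the arrays of the groups overlapped on this measure. The arrays of the 2 groups did not overlap for 3 genes lower in Nestin-positive cells (Tpi1, Pfkm and Hk1) against 9.11% of all genes, and for 0 genes higher against 5.87%.

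**Figure D1:**
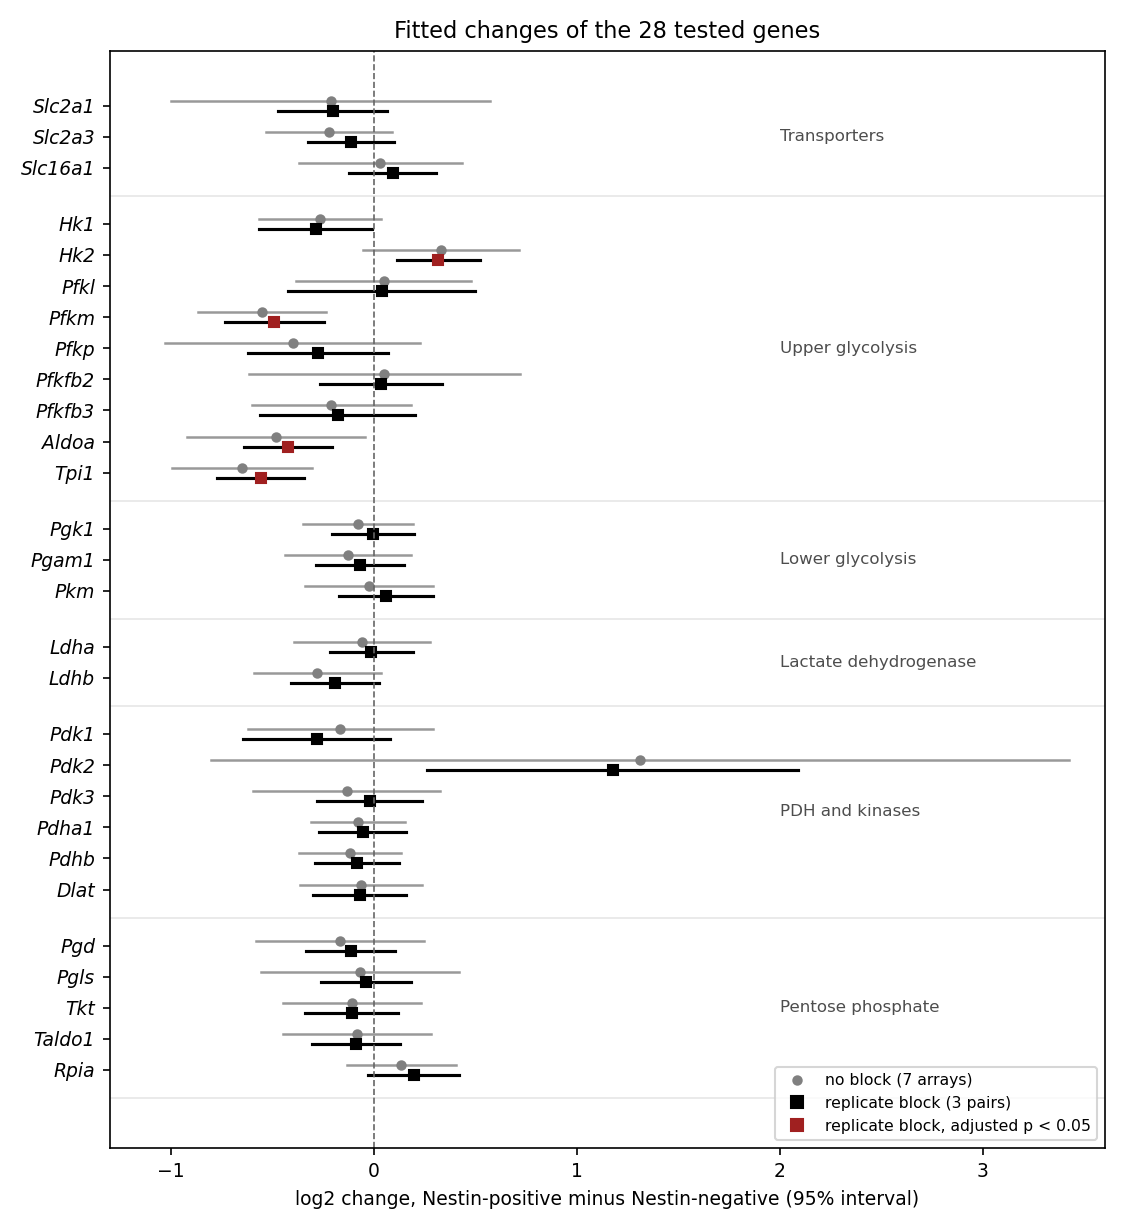
Fitted log2 change of each of the 28 tested genes (horizontal axis, Nestin-positive minus Nestin-negative, with its 95% interval), by role, from the fit without a block (grey, 7 arrays) and with the replicate block (black, 3 pairs; red where the adjusted p was under 0.05). Tpi1, Pfkm and Aldoa lie to the left and Hk2 to the right of 0 in red, and most of the other genes lie close to 0, while Pdk2 has the widest interval.

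Tpi1 encodes triosephosphate isomerase, which interconverts the 2 three-carbon products of aldolase, and had the smallest p of the 28 genes in both fits. Its signal was 2540, 2377, 3559 and 3199 on the Nestin-positive arrays (replicates 1, 3, 4 and 5) and 4075, 4638 and 4860 on the Nestin-negative arrays (replicates 1, 4 and 5). Every Nestin-positive array lay below every Nestin-negative array. The group means were 2919 ± 555 (SD, n = 4) and 4524 ± 404 (SD, n = 3). The change was -0.65 ± 0.16 (SE) without the block, or 1.57-fold lower, with an adjusted p of 0.0938 (limma). With the replicate block Tpi1 fell by 0.56 ± 0.10 (SE), or 1.47-fold, with an adjusted p of 0.00113 (limma) and a 95% interval from -0.77 to -0.34. The call held in the block fit without each pair in turn, with adjusted p-values of 0.00364, 1.1e-05 and 0.0103 (limma) without pair 1, 4 and 5. These fits have 1 residual degree of freedom per gene, so the p-values rest on spread pooled over genes and hardly on that of Tpi1 itself.

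The other 2 probe sets of Tpi1 gave the same picture. Their groups did not overlap either, and their changes with the block were -0.59 and -0.64 (adjusted p = 0.00617 and 0.00332 in limma over all probe sets). One of the 3 Tpi1 probe sets and all 5 of Aldoa carry the array maker's x_at suffix, which marks probes that can also bind similar sequences, so a share of their signal may come from near-identical copies.

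Pfkm encodes the muscle-type subunit of phosphofructokinase, the enzyme that commits the sugar to glycolysis. Its signal was 840, 778, 1074 and 874 on the Nestin-positive and 1390, 1336 and 1171 on the Nestin-negative arrays. The groups did not overlap, and the nearest arrays were Nestin-positive replicate 4 and Nestin-negative replicate 5. The change was -0.55 ± 0.14 (SE) without the block (limma, adjusted p = 0.107, 1.46-fold lower). With the block Pfkm fell by 0.49 ± 0.12 (SE, limma, adjusted p = 0.00920, 1.40-fold lower). Without pair 1 the block fit gave -0.37 with an adjusted p of 0.145.

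Aldoa encodes aldolase A, which cleaves fructose bisphosphate. Its brightest probe set read 1878, 2192, 3117 and 2927 on the Nestin-positive and 2809, 3724 and 3957 on the Nestin-negative arrays. The groups overlapped, because Nestin-negative replicate 1 lay below Nestin-positive replicates 4 and 5, although the Nestin-positive sample was the lower one in all 3 pairs. The change was -0.48 ± 0.20 (SE) without the block (limma, adjusted p = 0.299). With the block Aldoa fell by 0.42 ± 0.10 (SE, limma, adjusted p = 0.0107, 1.34-fold lower). Its adjusted p was 0.101 without pair 1, 0.0628 without pair 5 and 0.0544 with the replicate number as a random block. Of its 5 probe sets, 3 passed in the block fit over probe sets, with changes of -0.42, -0.45 and -0.56, and another stood at -0.36 (adjusted p = 0.0923). The fifth read 1500 ± 183 (SD, n = 4) and 1496 ± 104 (SD, n = 3) and stood at 0.09, and with the mean of all 5 the adjusted p of the gene was 0.0531.

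Hk2 encodes hexokinase 2, which phosphorylates glucose on entry and is the hexokinase linked to proliferating and Hedgehog-driven precursors. Its single probe set read 6496, 6649, 5397 and 7527 on the Nestin-positive and 5290, 3984 and 6446 on the Nestin-negative arrays. The Nestin-positive sample was the higher one in each of the 3 pairs, but the groups overlapped, since Nestin-positive replicate 4 lay below Nestin-negative replicate 5. The change was 0.33 ± 0.17 (SE) without the block (limma, adjusted p = 0.427). With the block Hk2 rose by 0.32 ± 0.10 (SE), or 1.25-fold, with an adjusted p of 0.0442 (limma) and a 95% interval from 0.11 to 0.53. This call did not outlast the loss of any pair, with adjusted p-values of 0.0817, 0.121 and 0.157 without pair 1, 4 and 5. It was also lost with a random block (adjusted p = 0.101) and in the block fit over probe sets (adjusted p = 0.0836).

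**Figure D2:**
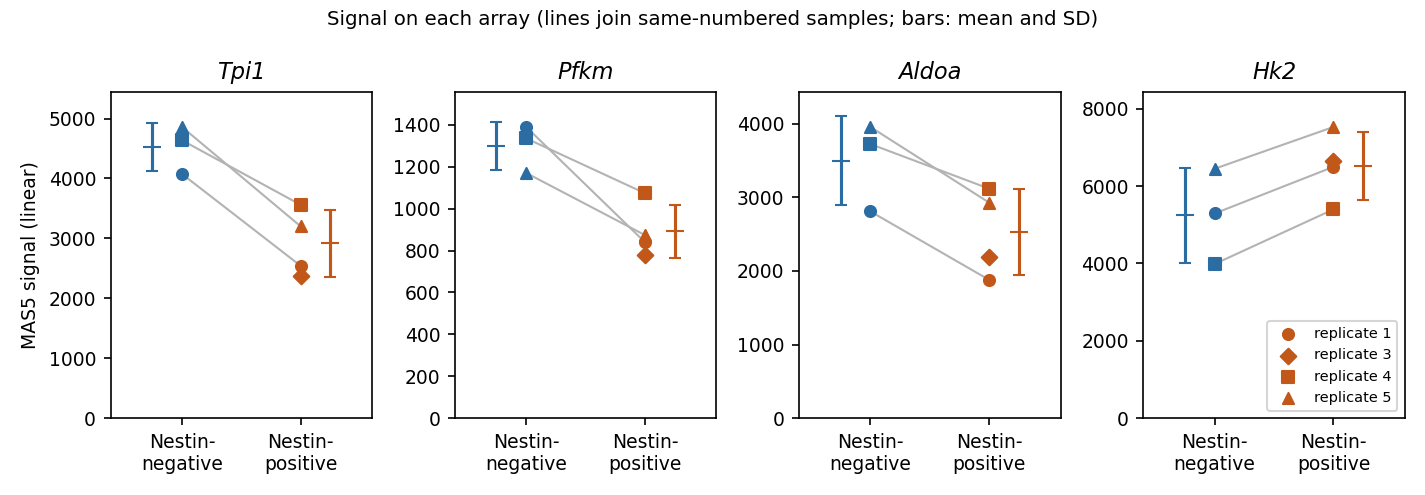
MAS5 signal (vertical axis, linear, from 0) of Tpi1, Pfkm, Aldoa and Hk2 on each array; symbols mark the replicate number, lines join same-numbered samples of the 2 fractions, and the bars give the mean and SD of each group. All 3 lines run down for Tpi1, Pfkm and Aldoa and up for Hk2, and the groups are apart for Tpi1 and Pfkm only.

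The 2 hexokinase genes stood on opposite sides of 0. Hk1, the housekeeping hexokinase of brain, read 407, 438, 419 and 412 on the Nestin-positive and 469, 575 and 472 on the Nestin-negative arrays. Its groups did not overlap, but the change of -0.29 ± 0.13 (SE) with the block did not pass (limma, adjusted p = 0.211). On the log2 scale, the difference of Hk2 minus Hk1 was higher in Nestin-positive cells by 0.60, and it was higher in 3 of 3 pairs. An exact permutation test, two-sided, over all 35 ways to split the arrays gave p = 0.0857, or 0.129 adjusted over the 3 isoenzyme pairs computed, where the smallest p possible is 0.0286.

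The other 4 tested genes of phosphofructokinase and its regulators did not pass in either fit. The liver-type subunit gene Pfkl read 132 to 141 on the Nestin-positive and 124 to 143 on the Nestin-negative arrays. Its other 2 kept probe sets, which were dimmer, had changes of the other sign. The platelet-type gene Pfkp stood at -0.27 ± 0.17 (SE) with the block (limma, adjusted p = 0.373), and its highest value was 553 on Nestin-negative replicate 1 against 205 to 354 on the Nestin-positive arrays. Pfkfb2 and Pfkfb3 encode enzymes that make and break fructose 2,6-bisphosphate, the activator of phosphofructokinase. Their changes with the block were 0.04 ± 0.14 and -0.18 ± 0.18 (SE, limma, adjusted p = 0.927 and 0.643), and in all 3 pairs Pfkfb3 was lower in Nestin-positive cells.

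To show the regulatory sequence next to the gene that rose and the gene with the smallest p among those that fell, the 250 bases before the annotated start of Hk2 and Tpi1 are printed from the RefSeq promoter table of GRCm38.p6. Both genes lie on the minus strand, Hk2 with its window at chr6:82774455-82774704 and Tpi1 at chr6:124814159-124814408, and each is written 5′ to 3′ along the gene. Capitals mark ACGTG, the core of the hypoxia response element, which lies on the other strand in Hk2 and so reads CACGT.
Hk2: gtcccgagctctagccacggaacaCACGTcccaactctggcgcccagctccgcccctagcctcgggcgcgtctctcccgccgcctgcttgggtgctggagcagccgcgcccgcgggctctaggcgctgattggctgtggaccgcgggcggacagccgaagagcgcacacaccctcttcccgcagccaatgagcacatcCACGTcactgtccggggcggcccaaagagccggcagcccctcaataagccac
Tpi1: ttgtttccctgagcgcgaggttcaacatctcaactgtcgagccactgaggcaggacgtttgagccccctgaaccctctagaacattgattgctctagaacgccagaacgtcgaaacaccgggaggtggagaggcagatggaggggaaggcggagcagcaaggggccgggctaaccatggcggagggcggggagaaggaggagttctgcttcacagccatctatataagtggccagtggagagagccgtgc
The 2 matches in Hk2 begin 226 and 52 bases before the start, and the Tpi1 window holds no match to any of the motifs searched. Windows of 300 bases, 250 before and 50 after a start, were found for 33 of the 34 genes, which gave 49 windows, and Slc2a3 was not in the table. Both strands were searched for ACGTG and GCGTG (hypoxia response element cores), CACGTG (the E-box that Myc can bind, which contains ACGTG on both strands) and GACCACCCA (the GLI motif).

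ACGTG was found in 22 of the 49 windows (44.9%) against 19.6% of all 32851 windows, and GCGTG in 28 (57.1%) against 32.4%. CACGTG was found in 6 (12.2%) against 7.15%, and GACCACCCA in 0 against 0.253%. Windows of 1 gene can overlap, and the windows were not matched for their share of G and C. These shares are a description of the letters, and binding was not tested. Of the genes that passed with the block, Aldoa had ACGTG in 2 of its 3 windows, Hk2 had it in its 1 window and Pfkm had it in 2 of 4, 1 of them as CACGTG 136 bases before the start. Tpi1 had none in its 1 window.

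In lower glycolysis no gene passed, and the point estimates lay close to 0. Pgk1 encodes phosphoglycerate kinase, the first step that regains ATP, and read 5177 to 6675 on the Nestin-positive and 5938 to 6835 on the Nestin-negative arrays, a change of -0.00 ± 0.10 (SE) with the block and a 95% interval from -0.21 to 0.20. Pgam1, phosphoglycerate mutase, stood at -0.07 ± 0.10 (SE). Pkm encodes the pyruvate kinase that ends glycolysis, and its change was -0.02 without and 0.06 ± 0.11 (SE) with the block, so that its sign turned between the fits. Pkm had 1 probe set, and its M1 and M2 forms were not told apart here.

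Gapdh was read by 3 control probe sets, which stood outside the fits. The one at the 3′ end read 10449, 11367, 16455 and 13517 on the Nestin-positive and 12364, 14893 and 14906 on the Nestin-negative arrays. Its groups overlapped widely, with Nestin-positive replicate 4 above all other arrays. The log2 differences of the 3′, middle and 5′ probe sets were -0.14, -0.07 and -0.13, with p = 0.543, 0.771 and 0.514 in the exact two-sided permutation test. Eno2, the neuronal enolase gene, read 17.3 to 29.3 and 25.1 to 41.0 in the 2 groups, under every array median, and is left without a fold.

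For lactate, the data give the 2 dehydrogenase subunits and 1 of the 2 transporters. Ldha encodes the subunit that favours lactate formation, and read 5890, 6392, 8506 and 7665 on the Nestin-positive and 6269, 7882 and 7968 on the Nestin-negative arrays. The groups overlapped fully, and the change with the block was -0.01 ± 0.10 (SE), with a 95% interval from -0.22 to 0.19. Ldhb, the subunit that favours pyruvate, read 3503, 3197, 4597 and 4160 on the Nestin-positive and 4347, 4540 and 5050 on the Nestin-negative arrays. Its change was -0.28 ± 0.14 without and -0.19 ± 0.10 with the block (SE, limma, adjusted p = 0.417 and 0.296). All 4 of its probe sets were lower in Nestin-positive cells, and in 1 of them the groups did not overlap (change -0.29 with the block, limma, adjusted p = 0.118). The difference of Ldha minus Ldhb was higher in Nestin-positive cells by 0.22 on the log2 scale and in 3 of 3 pairs (exact two-sided permutation test, p = 0.0857, adjusted p = 0.129).

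Slc16a1 encodes the monocarboxylate transporter MCT1, which carries lactate across the membrane. Its signal was 2653 on Nestin-negative replicate 1 and 3097 to 4387 on the other 6 arrays, and its change with the block was 0.09 ± 0.10 (SE, limma, adjusted p = 0.669). Slc16a3, the exporter gene MCT4, read 6.67 to 34.1 and 9.21 to 38.5 in the 2 groups and was below the median of every array.

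The glucose transporter genes did not pass. Slc2a1 (GLUT1) read 430, 678, 1008 and 771 on the Nestin-positive and 444, 1015 and 1129 on the Nestin-negative arrays. Its 2 lowest values were the 2 arrays of replicate 1, so the spread followed the replicate number more than the fraction, and the change with the block was -0.20 ± 0.13 (SE, limma, adjusted p = 0.405). Slc2a1 is also a gene of the brain endothelium, and the summed signal of 15 endothelial markers ran from 4211 to 8038 on the Nestin-positive and 3169 to 7432 on the Nestin-negative arrays. Of the 12 markers tested, 10 had a negative and 2 a positive change with the block, and 0 passed. Itm2a, with a positive change of 0.32, read 3518 to 5523 and 2158 to 4794 in the 2 groups and gave most of the sum. That sum too was lowest on the 2 arrays of replicate 1, with 3 to 12 and 7 to 12 of the 15 markers at or above the median, and its part in the Slc2a1 values was not tested.

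Slc2a3 encodes the neuronal transporter GLUT3 and read 2216, 1595, 2234 and 2060 on the Nestin-positive and 2463, 2356 and 2208 on the Nestin-negative arrays. The Nestin-positive sample was lower in all 3 pairs, by little (-0.11 ± 0.10 with the block, SE, limma, adjusted p = 0.595), and a second, dimmer probe set was higher in all 3 (0.09 on the mean). The difference of Slc2a1 minus Slc2a3 stood at 0.01 without the block (exact two-sided permutation test, p = 1) and at -0.09 over the 3 pairs.

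At the entry to the mitochondrion, the 3 subunit genes of the pyruvate dehydrogenase complex were close to level. Pdha1 and Pdhb encode the subunits of its first enzyme and Dlat that of the second, and their changes with the block were -0.05 ± 0.10, -0.08 ± 0.10 and -0.07 ± 0.11 (SE, limma, adjusted p = 0.819, 0.702 and 0.781). The widest of their 95% intervals ran from -0.30 to 0.16. Each of the 3 genes also had a dimmer probe set with a change of the other sign without the block.

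The pyruvate dehydrogenase kinases inactivate the complex and so keep pyruvate in the cytosol. Pdk1, a target of hypoxia signalling, read 241, 269, 175 and 177 on the Nestin-positive and 257, 224 and 231 on the Nestin-negative arrays. In all 3 pairs it was lower in Nestin-positive cells, with -0.28 ± 0.17 under the block (SE, limma, adjusted p = 0.386), although Nestin-positive replicate 3 was the highest array. Pdk3 stood at -0.02 ± 0.12 (SE, limma, adjusted p = 0.955).

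Pdk2 read 36.4, 117, 129 and 112 on the Nestin-positive and 5.37, 110 and 77.0 on the Nestin-negative arrays. Both arrays of replicate 1 lay far below the others and below their medians, and the Nestin-positive sample was higher in all 3 pairs. The change was 1.18 ± 0.44 with the block (SE, limma, adjusted p = 0.101), with the widest standard error of the 28 genes. Without the block it was 1.31 ± 0.95 (SE), and -0.06 once Nestin-negative replicate 1 was left out. When signals below an array's median were set to that median, the block gave a change of 0.25, and without pair 4 the block fit passed the threshold (1.65, limma, adjusted p = 0.0338).

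No gene of the pentose phosphate pathway passed in either fit. Pgls and Pgd belong to the oxidative branch, which yields NADPH, and stood at -0.04 ± 0.11 and -0.11 ± 0.11 with the block (SE, limma, adjusted p = 0.888 and 0.597). In the non-oxidative branch, Tkt (transketolase) and Taldo1 (transaldolase) stood at -0.11 ± 0.11 and -0.09 ± 0.10 (SE, limma, adjusted p = 0.637 and 0.702). Tkt read 13290 on Nestin-positive replicate 1 and 17707 to 21067 on the other 6 arrays.

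Rpia, ribose 5-phosphate isomerase, which leads to nucleotide synthesis, was the one gene of this pathway with a positive change. It read 1378, 1240, 1584 and 1437 on the Nestin-positive and 1242, 1315 and 1277 on the Nestin-negative arrays. The Nestin-positive sample was higher in all 3 pairs and Nestin-positive replicate 3 was the lowest array of all. The change was 0.20 ± 0.11 with the block (SE, limma, adjusted p = 0.301, 95% interval from -0.03 to 0.42).

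Over all roles, 9 genes were lower in Nestin-positive cells in each of the 3 pairs (Slc2a1, Slc2a3, Hk1, Pfkm, Pfkfb3, Aldoa, Tpi1, Pdk1 and Dlat) against 23% of all genes, and 3 were higher in all 3 (Hk2, Pdk2 and Rpia) against 19%. Of the 24 genes that did not pass with the block, 23 had a change within 0.3 of 0 and the 95% interval held 0 for 22, all but Hk1 and Pdk2. For 18 of the 24 the whole interval lay between -0.5 and 0.5, so that at this precision changes larger than 0.5 on the log2 scale lay outside the interval for these 18 and not for the other 6.

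Both replicate 1 arrays were the lowest of the 7 for 7 of the 28 genes (25%), namely Slc2a1, Slc16a1, Ldha, Pdk2, Dlat, Pgls and Taldo1, against 16.5% of all genes. Both were the highest for 2 (Pfkp and Pfkfb2, 7.14%) against 9.29%. None of the 4 genes that passed with the block was among these 9. For Tpi1 and Pfkm this was fixed in advance, because their groups did not overlap and replicate 1 has an array in each group. It does not show that the calls are free of replicate 1, since only Tpi1 passed in the block fit without pair 1.

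**Figure D3:**
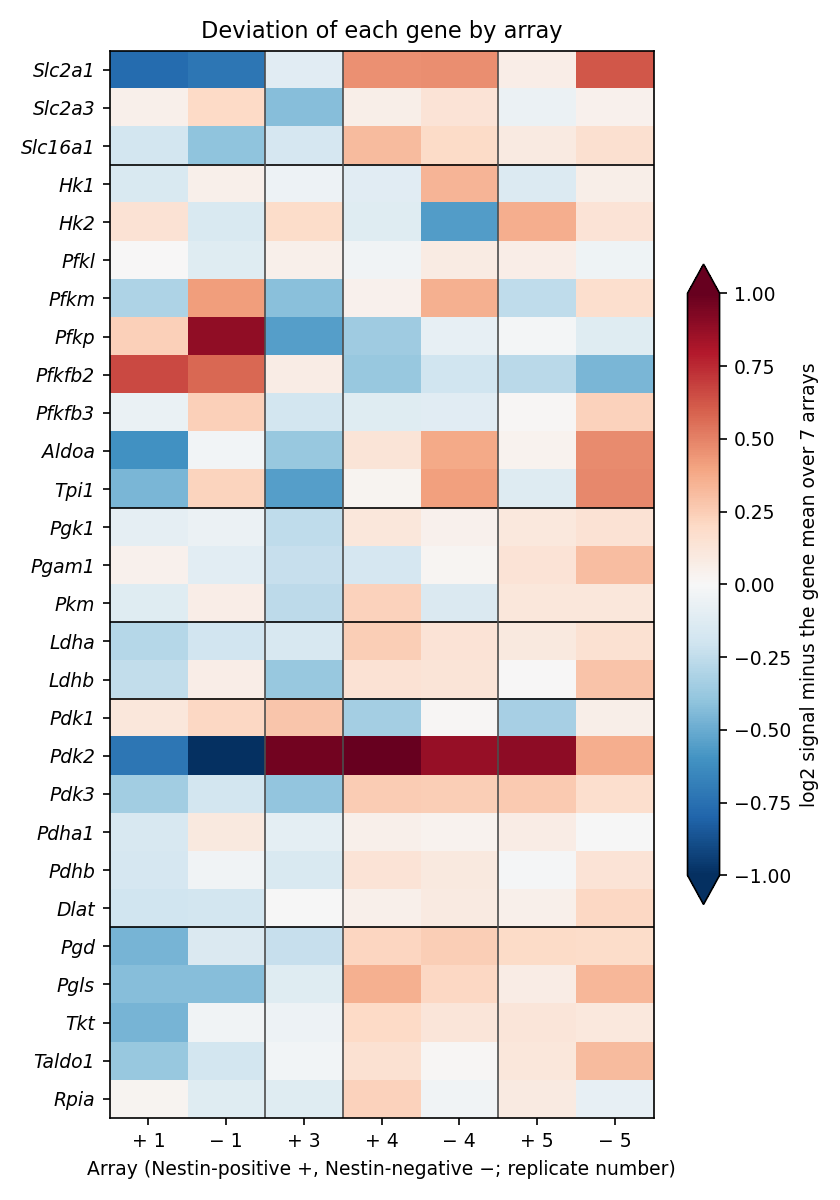
Log2 signal of the 28 tested genes (rows, by role) on the 7 arrays (columns, ordered by replicate number, + Nestin-positive and − Nestin-negative) minus the mean of the gene over the arrays; colours run from -1 to 1 and values beyond are drawn at the ends. Columns of one replicate number share colours for many genes, as for Slc2a1 and Pfkfb2, while Tpi1 and Pfkm are blue on Nestin-positive and red on Nestin-negative arrays apart from Nestin-positive replicate 4, which is near 0.

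At the level of probe sets, 71 read the listed genes, of which 3 were the Gapdh controls, 13 fell under the filter and 55 were tested among 20162. Without the block 0 of the 55 passed (6 at an unadjusted p under 0.05), as did 0 of all 20162, or 0% (limma, 2234 at an unadjusted p under 0.05). With the block 7 of the 55 passed as lower, 3 of Tpi1, 3 of Aldoa and 1 of Pfkm, against 3.34% of all probe sets, and 0 of 55 as higher (11 at an unadjusted p under 0.05 in either direction) against 1.53%. Probe sets of 1 gene share its transcript and are not replicates. Of 13 genes with several kept probe sets, 7 had one whose change without the block had the other sign than the brightest, and they were Pfkl, Pgk1, Slc2a3, Pdha1, Pdhb, Dlat and Tkt.

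**Figure D4:**
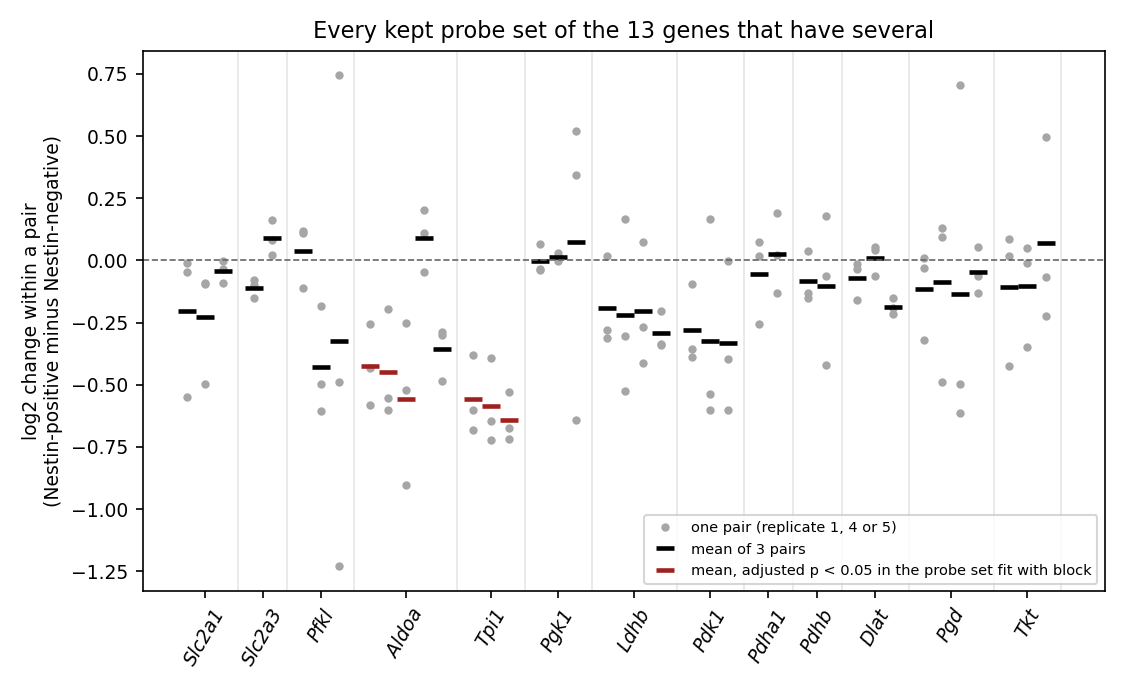
Log2 change within each of the 3 pairs (points) and their mean (bars; red where the adjusted p of the probe set was under 0.05 with the block) for every kept probe set of the 13 genes that have several, brightest first. The 3 probe sets of Tpi1 lie between -0.38 and -0.72 in every pair, whereas Aldoa has 1 probe set near 0 and Pgk1, Pfkl and Pgd each have a probe set whose pairs scatter on both sides of 0.

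Markers of other cell types and of division also differed in signal between the fractions, and in bulk RNA fewer cells of a type and less RNA per cell cannot be told apart. The summed signal of 12 markers of microglia and macrophages ran from 442 to 1261 on the Nestin-positive and from 2293 to 8544 on the Nestin-negative arrays, with 0 to 7 and 9 to 12 of them at or above the median. That of 10 markers of pericytes and smooth muscle ran from 620 to 2080 and from 1392 to 9622 (3 to 8 and 6 to 9 at or above the median). Markers of differentiating granule neurons, 13 with a probe set, summed to 34200 to 40821 and 46993 to 53091 (11 to 12 in both groups). The sum of 14 genes of G2 and mitosis ran the other way, from 55613 to 63207 and from 38441 to 49664, with all 14 at or above the median on every array. The 3 markers of red blood cells with a probe set were below it on every array (sums of 19 to 63 and 20 to 45). No marker was listed at 0. The sums for microglia and for differentiating granule neurons were lower, and that for G2 and mitosis higher, on every Nestin-positive array than on any Nestin-negative array. The sum for 11 markers of granule neuron precursors was lower in the same way, at 76251 to 86311 against 88880 to 92303. Zic1, Neurod1 and Ccnd2 gave most of this sum, and Neurod1 read 13037 to 16477 and 19329 to 23066 in the 2 groups. Of these 11, with the block 7 had a negative change (2 passed in limma, Neurod1 and Barhl2). The other 4 had a positive one (2 passed, Atoh1 and Barhl1), so the sum does not stand for each marker. Among the Nestin-positive arrays, replicate 4 had the lowest Hk2 and the highest sum for mitosis. It also had the highest Aldoa, Tpi1 and Pfkm, the highest mean deviation of the 28 genes and the highest sum for differentiating granule neurons. These are values of 1 array, on which many of the genes were high together. The part of these markers in the values of Tpi1, Pfkm, Aldoa and Hk2 was not tested.

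Over 4 lists of other genes of carbohydrate and energy metabolism, 55 genes were tested, of which 0 passed without the block (limma, 6 at an unadjusted p under 0.05) and 4 with it, or 7.27% against 9.97% of all genes. Among 9 other glycolysis and gluconeogenesis genes, Aldoc, the aldolase of astrocytes and Bergmann glia, fell with the block by 0.86 ± 0.18 (SE, limma, adjusted p = 0.00286). It read 165, 551, 335 and 389 on the Nestin-positive and 188, 886 and 773 on the Nestin-negative arrays, lowest on both arrays of replicate 1. The summed signal of 12 astrocyte and Bergmann glia markers, Aldoc included, ran from 9006 to 33897 and from 7401 to 22222 (9 to 11 at or above the median in both groups). The 33897 was on Nestin-positive replicate 3, which the block fit does not use, and Fabp7 alone gave 14175 of it. Fabp7 ran from 1047 to 14175 over the arrays, so the sum leans on this gene. For replicates 1, 4 and 5 the sums were 9006, 15279 and 15910 (Nestin-positive) against 7401, 21838 and 22222. With the block, 5 of the 11 markers tested passed as lower and 2 as higher (limma). The part of glia in the Aldoc values was not tested.

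Among 15 other genes of pyruvate handling and the pentose phosphate pathway, Prps2, which makes the ribose donor of nucleotides from ribose 5-phosphate, rose with the block by 0.39 ± 0.12 (SE, limma, adjusted p = 0.0446). Its Nestin-positive arrays read 1718 to 2417 and its Nestin-negative arrays 1395 to 1793, so that the groups overlapped. Among 9 genes of glycogen and galactose use, Galt and Pgm1 fell with the block by 0.56 ± 0.13 and 0.55 ± 0.15 (SE, limma, adjusted p = 0.00929 and 0.0223). Galt encodes the uridylyltransferase of galactose breakdown, and read 285 to 449 on the Nestin-positive and 565 to 649 on the Nestin-negative arrays, without overlap. Pgm1, phosphoglucomutase, links glycogen to glucose 6-phosphate. Of 22 genes of the tricarboxylic acid cycle, 0 passed in either fit (limma, 0 at an unadjusted p under 0.05 in both), with medians of -0.07 without and -0.01 with the block.

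Beyond metabolism, 15 regulators and targets of the hypoxia pathway and 10 Myc and Hedgehog regulators of proliferation were tested. In the hypoxia list, 0 passed without the block (limma, 2 at an unadjusted p under 0.05). With it Epas1 (HIF-2 alpha) fell by 0.89 ± 0.17 and Bnip3, a hypoxia target of mitochondrial turnover, fell by 0.40 ± 0.11 (SE, limma, adjusted p = 0.00143 and 0.0225), and 0 genes rose. Hif1a stood at 0.01 ± 0.10 and Vegfa at 0.05 ± 0.16 (SE, limma, adjusted p = 0.974 and 0.902). Epas1 read 78.8, 106, 642 and 420 on the Nestin-positive and 126, 971 and 1106 on the Nestin-negative arrays, and like Slc2a1 it is a gene of endothelium.

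In the list of Myc and Hedgehog regulators, Hhip, the Hedgehog-binding inhibitor that the pathway itself induces, rose without the block by 0.97 ± 0.17 (SE, limma, adjusted p = 0.0403) and by 0.91 with it. With the block Myc and Ccnd1 (cyclin D1) rose as well, by 0.42 ± 0.11 and 0.34 ± 0.10 (SE, limma, adjusted p = 0.0204 and 0.0280). These are 3 of 10 higher, against 3.58% of all genes with the block. Mycn, Mycl, Max, Gli1, Gli2, Ptch1 and Ccnd2 did not pass in either fit. Their changes with the block ran from -0.05 (Ccnd2) to 0.34 (Gli1), with Mycn at -0.03. Among 9 serine and one-carbon genes, Shmt1 rose with the block by 0.47 ± 0.11 (SE, limma, adjusted p = 0.00672).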

How the data were processed

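Total RNA of 7 sorted samples was hybridised to 1-colour Affymetrix arrays of the mouse genome (430 2.0), per the labels' protocols. The deposited values are MAS5 signal, a linear intensity, per the submitters' processing notes, with a version that was not given in the sources used here. MAS5 corrects with mismatch probes, so ratios of dim values are noisy. Groups and replicate numbers come from the sample titles. Precision is limited by the number of arrays.

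Of 45101 probe sets, 64 controls were left out of the fits. The platform annotation gave 1 gene for 34945, several for 932 and none for 9160; symbols were updated by Entrez ID (34741 matched) through a RefSeq table of GRCm38.p6, used for names, and its promoter table for the sequences. The deposited intensity was put on the log2 scale with no pseudocount. Probe sets at or above the array median on at least 3 of 7 arrays were kept, and the brightest stood for its gene. The test was that of limma 3.58.1 (R 4.3.3; lmFit and eBayes, with an intensity trend; statmod 1.5.0 for a random block), two-sided, at an adjusted p of 0.05; the fit was tested on simulated data.

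Samples of the same number deviated together from their group means, across genes, with r = 0.71, 0.39 and 0.47 for replicates 1, 4 and 5, against -0.60 to 0.19 for other pairs. Deviations within a group sum to 0, so the match of the replicate 1 arrays by itself lowers their r with the others. Between replicates 4 and 5, samples of different number had r = 0.19 and 0.07. Samples were therefore treated as paired by number, a choice made from the data, since the labels do not state it. The block fit has 2 residual degrees of freedom per gene, 19.8 after moderation (5 and 9.8 without the block), so its errors rest mostly on spread pooled over genes.

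The 34 genes and all lists were chosen with earlier results of these data known. All 34 are named. In the other pathway lists, up to 4 genes that passed in either fit were named. Hif1a, Vegfa and the Myc and Hedgehog genes that did not pass were named as well, after their values were seen.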

Additional observations from a re-analysis of the deposited data

Results flagged for a closer look

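Pdk2 on Nestin-positive replicate 1, with a signal of 36.4, stood apart from the other 3 Nestin-positive arrays (112 to 129). On the log2 scale its gap to the nearest of them was 0.887 of the range of the group, above Dixon's 95% critical value for 4 samples. By chance alone about 1 in 20 groups of 4 samples gives such a gap. A group of 4 was examined for each of the 28 genes, so 1 case is no more than chance alone gives.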

How the results depend on the processing

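The number of genes called depended most on the pairing. Against 83 genes without the block, the replicate block called 1106, a random block 854, and the block with quantile normalization, with the mean of probe sets and with a floor at the array median 801, 961 and 980 (these 3 were chosen after seeing the data). Without the block, quantile normalization called 21 genes, no filter 52, the mean of probe sets 43 and a fit without an intensity trend 0 (1573 at an unadjusted p under 0.05), whereas a filter on all 7 arrays called 106, a floor at the array median 122 and log2(signal + 16) 104. Leaving out 1 array gave 0 to 97, with 0 without Nestin-positive replicate 5 or Nestin-negative replicate 4 (1320 and 1158 at an unadjusted p under 0.05), and the block without 1 pair gave 717 (without pair 1), 904 (pair 5) and 1419 (pair 4). Of the 28 genes, 0 passed in each fit without a block, whereas 4 passed with the block, 2 with a random block, 1 to 4 in the block fit without 1 pair, and 4, 3 and 4 with the block and quantile normalization, the mean of probe sets and the floor. Of their 55 probe sets, 7 passed with the block, 4 with a random block, 3 to 10 without 1 pair, 6 with the block and quantile normalization and 7 with the block and the floor. The block without 1 pair has 1 residual degree of freedom per gene, so its p-values rest on spread pooled over genes. The difference of Slc2a1 minus Slc2a3 (0.01) was -0.0928 over the pairs of the replicate block, -0.0799 with the mean of probe sets and between -0.45 and 0.30 with 1 array left out. Of 615 values of single genes over 22 alternatives, 41 had the other sign, none of them called, 24 newly passed and 550 kept their sign and their side of the threshold. The cause of these differences was not tested. Signals near the array median, as for Pdk2 and Pfkl, limit what can be read.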
